A study of Mus musculus with 20 samples.

Results

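The proteasome genes are those whose official symbol starts with Psm, followed by a letter from a to g and a number. They encode the subunits of the proteasome, its activators and its assembly factors. The genes were picked by name and not by their values. Of 20970 genes with a probe and a symbol on the array, 50 matched, through 62 probes. Where a gene had several probes the brightest was used, and 48 of the 50 genes were among the 15102 genes tested. The other 2 genes, the testis form Psma8 and the thymus form Psmb11, were not well above background on any of the 20 arrays and have no test. All 48 tested genes were well above background on all 20 arrays, and none was saturated on any array. Psme2, the partner of Psme1, matched no probe and was not analysed here.

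The 20 samples are brains of male C57BL/6J mice, 5 mice in each of 4 groups with 1 array per mouse. Tat− mice carried the Tet-binding protein alone, driven by the GFAP promoter, and Tat+ mice also carried the HIV-1 Tat transgene behind a tetracycline-responsive promoter, so that Tat was made in astrocytes. Every mouse, controls included, received doxycycline at 100 mg/kg, the drug that switches the transgene on. The groups are Tat−/Sal and Tat+/Sal, given saline for 7 days, and Tat−/Meth and Tat+/Meth, given methamphetamine (Meth) at 2 mg/kg for 7 days. The sample labels name the left hemisphere of mice aged 6 to 7 weeks, taken 24 h after the last injection. The methods instead name caudate putamen of mice aged 3 to 5 months, with 7 days off the drug and then 1 mg/kg Meth for every group 1 h before harvest. If that last dose was given, no group was free of Meth. All 9 striatal markers checked were well above background on all 20 arrays, against 2 of 5 cortical markers.

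The proteasome is the barrel-shaped protease that degrades proteins tagged with ubiquitin. Its core particle is a stack of alpha and beta rings with the protease sites inside, and a regulatory cap with a ring of ATPases recognises, unfolds and feeds in the substrate. Under interferon, the catalytic beta subunits are exchanged for those of the immunoproteasome, which generates peptides for MHC class I. In the brain the constitutive form prevails in neurons, and the immunoproteasome is made mainly by glia and immune cells.

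Levels are given as log2 of the background-subtracted signal, with each array shifted so that its 75th percentile equals the mean of that percentile over the 20 arrays, and a difference of 1 is a 2-fold change. Levels of different genes come from different probes and were not set against each other. A limma model of the 4 groups was fitted over all genes, and a gene is said to rise or fall at a Benjamini–Hochberg adjusted p under 0.05 over all 15102 genes. All 5 Tat−/Meth arrays were on slide 1, which held no other group. Slide 2 held Tat−/Sal and 3 Tat+/Meth arrays, and slide 3 held the other 2 Tat+/Meth arrays and Tat+/Sal. The bright corner control spots, which do not depend on mouse RNA, had log2 signals of 14.66 to 15.06 on slide 1 and of 16.80 to 17.42 on the others. In each comparison with Tat−/Meth, the group and the slide therefore cannot be told apart, and every rise or fall given for such a comparison is subject to this.

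In Tat−/Meth vs. Tat−/Sal, 16 of the 48 proteasome genes were higher and 4 were lower, which is 41.7% of them. Over all genes tested, 50.2% were called in this comparison, 35% higher and 15.3% lower. The median log2 fold change was 0.13 over the proteasome genes and 0.14 over all genes, and 24 proteasome genes lay above the median of all genes and 24 below it. The levels of Tat−/Meth and Tat−/Sal did not overlap in 18 proteasome genes (37.5%), against 36.2% of all genes. No proteasome gene changed by more than 2-fold, while 6.85% of all genes were called with such a change. By these counts the family as a whole sat near the level of all genes, and the account that follows is of which members moved. The split depends on the scaling between arrays, since without scaling 1 proteasome gene was higher and 26 were lower. Without scaling 47.6% of all genes were called, and 1.74% of those calls were higher.

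**Figure D1:**
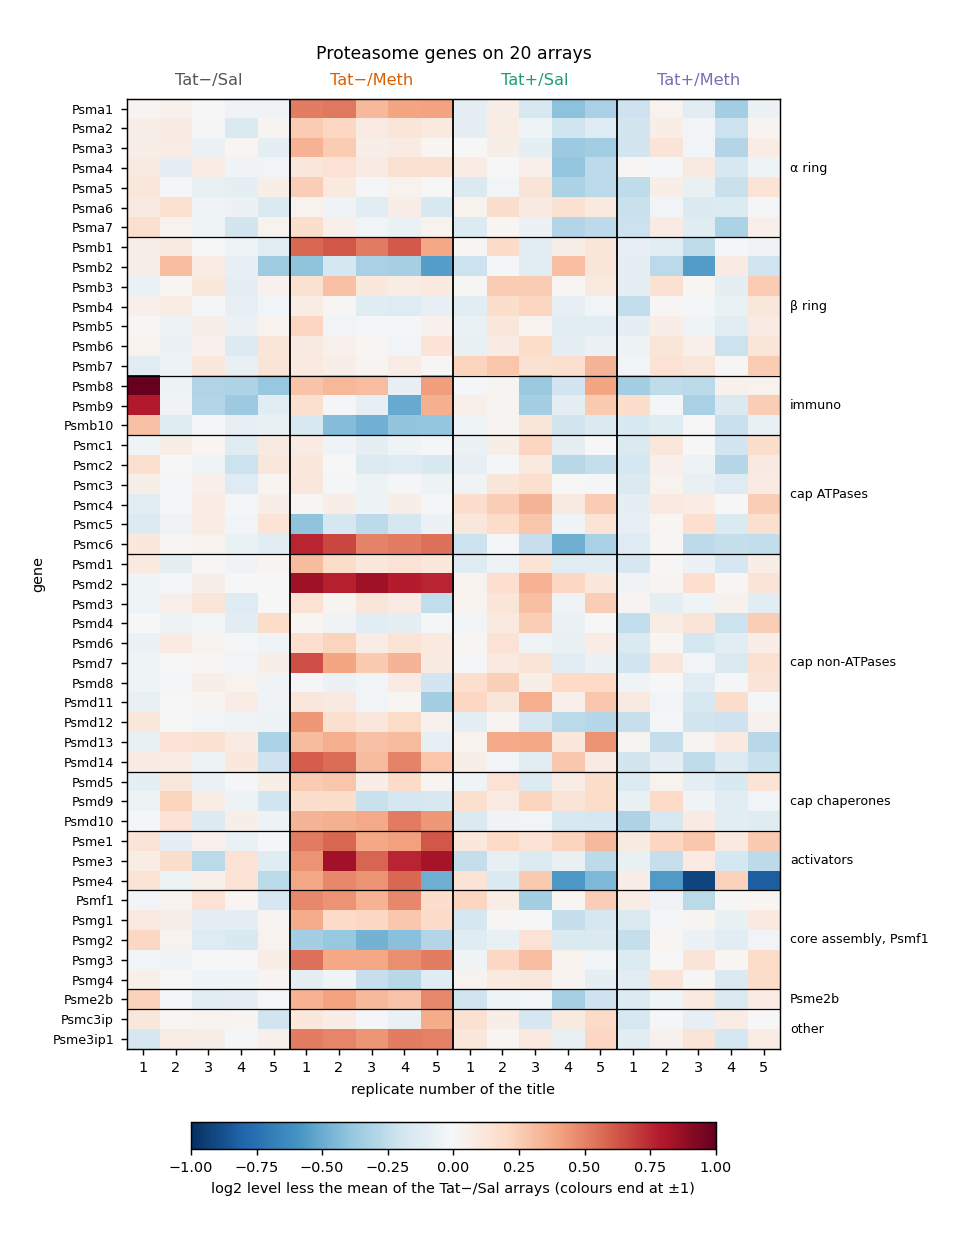
Level of each of the 48 tested proteasome genes (vertical axis, grouped by role) on each of the 20 arrays (horizontal axis, replicate number within each group). Colour is the log2 level less the mean of the 5 Tat−/Sal arrays; the columns of Tat−/Meth stand out at Psmd2, Psme3, Psmc6 and Psmb1, and replicate 1 of Tat−/Sal stands out at Psmb8 and Psmb9.

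The core particle changed in few of its subunits. Of its 14 ring subunits, 2 rose and 1 fell in Tat−/Meth vs. Tat−/Sal, against 35% and 15.3% of all genes. Their median log2 fold change was 0.06, against 0.14 over all genes. Among the 7 alpha-ring genes, whose products form the gated outer rings, only Psma1 passed the test on its brightest probe. Psma1 was at 14.38, 14.40, 14.35, 14.32 and 14.32 in Tat−/Sal, at 14.87, 14.88, 14.68, 14.75 and 14.76 in Tat−/Meth, at 14.27, 14.43, 14.20, 13.95 and 14.03 in Tat+/Sal and at 14.15, 14.39, 14.24, 14.02 and 14.30 in Tat+/Meth. The 5 Tat−/Meth arrays lay above all 15 others. Its rise was 0.43 on the log2 scale (SE 0.08, limma adjusted p = 0.000254, 1.35-fold). Psma2, another outer-ring subunit, had non-overlapping levels in these groups as well, with a log2 fold change of 0.15 and an adjusted p of 0.0617. The other 5 alpha-ring genes had log2 fold changes between -0.04 and 0.15 on their brightest probes. A second, dimmer probe of Psma4 had 0.77 (limma adjusted p = 1.50e-07).

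Some arrays were low or high across the alpha ring. Within Tat+/Sal, replicate 4 had the lowest level of 6 of the 7 alpha-ring genes and replicate 2 the highest level of 5. Within Tat+/Meth, replicate 4 was lowest for 5 of the 7. The same Tat+/Sal replicate 4 was lowest for 5 of the 6 cap ATPase genes. These counts describe the arrays and have no test, and they share whatever each array's RNA and scaling have in common.

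The beta ring carries the protease sites. Its 3 catalytic genes are Psmb5, with chymotrypsin-like activity, Psmb6, with caspase-like activity, and Psmb7, with trypsin-like activity. Psmb5 was at 16.04, 15.98, 16.09, 15.97 and 16.06 in Tat−/Sal, at 16.25, 15.999, 16.02, 16.01 and 16.07 in Tat−/Meth, at 15.96, 16.14, 16.06, 15.91 and 15.92 in Tat+/Sal and at 15.94, 16.10, 15.99, 15.92 and 16.11 in Tat+/Meth. All 4 groups overlapped in Psmb5. Its log2 fold change in Tat−/Meth vs. Tat−/Sal was 0.04 (95% interval -0.09 to 0.17, limma adjusted p = 0.605).

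Psmb6 was at 15.84, 15.74, 15.84, 15.66 and 15.92 in Tat−/Sal, at 15.89, 15.84, 15.82, 15.77 and 15.94 in Tat−/Meth, at 15.73, 15.89, 15.98, 15.71 and 15.74 in Tat+/Sal and at 15.75, 15.92, 15.85, 15.59 and 15.92 in Tat+/Meth. Its groups overlapped throughout, and the log2 fold change in Tat−/Meth vs. Tat−/Sal was 0.05 (95% interval -0.10 to 0.20, limma adjusted p = 0.563). Psmb7 was at 13.13, 13.19, 13.35, 13.17 and 13.38 in Tat−/Sal, at 13.34, 13.31, 13.27, 13.32 and 13.26 in Tat−/Meth, at 13.47, 13.52, 13.40, 13.41 and 13.58 in Tat+/Sal and at 13.21, 13.39, 13.36, 13.26 and 13.50 in Tat+/Meth. Its difference between Tat−/Meth and Tat−/Sal was 0.06 (95% interval -0.07 to 0.18, limma adjusted p = 0.462). Under quantile normalization, however, Psmb5 and Psmb6 rose by 0.18 each (adjusted p = 0.00653 and 0.0075).

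Psmb1, a structural beta subunit without a protease site, rose in Tat−/Meth. It was at 13.69, 13.72, 13.63, 13.59 and 13.53 in Tat−/Sal, at 14.20, 14.26, 14.15, 14.25 and 14.02 in Tat−/Meth, at 13.64, 13.82, 13.53, 13.69 and 13.75 in Tat+/Sal and at 13.55, 13.53, 13.38, 13.62 and 13.60 in Tat+/Meth. Every Tat−/Meth array was above every array of the other groups. The rise over Tat−/Sal was 0.54 on the log2 scale (SE 0.06, limma adjusted p = 1.90e-06, 1.46-fold). Psmb2, also structural, fell by 0.36 (adjusted p = 0.0251), though its groups overlapped, at 10.44 to 10.81 in Tat−/Meth and 10.64 to 11.30 in Tat−/Sal. The structural subunits Psmb3 and Psmb4 had log2 fold changes of 0.15 and -0.05 and did not pass.

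No shift of the immunoproteasome genes as a group passed with Meth or Tat, though the values depended on 1 Tat−/Sal array. Psmb8 replaces Psmb5, Psmb9 replaces Psmb6 and Psmb10 replaces Psmb7 when the immunoproteasome is assembled. Of the 3 genes, 1 fell and none rose in Tat−/Meth vs. Tat−/Sal, against 15.3% and 35% of all genes. In Tat+/Sal vs. Tat−/Sal, Psmb8, Psmb9 and Psmb10 differed by -0.03, -0.02 and -0.04. Without replicate 1 of Tat−/Sal these differences were 0.23, 0.18 and 0.03. None of the 3 passed with or without that array, against 1.42% of all genes with it. The spread within a group had a median SD of 0.21 over these 3 genes, against 0.11 over all 48 and 0.13 over all genes. It was 0.18 to 0.60 for Psmb8 and 0.22 to 0.46 for Psmb9, but 0.08 to 0.17 for Psmb10. In each of the 3 the largest SD was that of Tat−/Sal. The promoters are shown here for these genes and for the constitutive counterparts of the first pair, since Psmb8, Psmb9 and Psmb10 were high together on 1 array. Each window runs 5′ to 3′ from 250 bases before to 50 bases after the start of transcription, from RefSeq on GRCm38.p6, and capitals mark a match to a motif named in the next paragraph.
Psmb8, chr17:34197945-34198244, plus strand: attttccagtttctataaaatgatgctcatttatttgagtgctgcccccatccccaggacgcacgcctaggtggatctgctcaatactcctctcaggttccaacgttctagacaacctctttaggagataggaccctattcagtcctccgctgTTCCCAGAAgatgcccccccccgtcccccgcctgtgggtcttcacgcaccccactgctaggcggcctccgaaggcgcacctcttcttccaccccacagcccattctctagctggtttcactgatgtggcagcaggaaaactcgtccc
Psmb9, chr17:34187281-34187580, minus strand: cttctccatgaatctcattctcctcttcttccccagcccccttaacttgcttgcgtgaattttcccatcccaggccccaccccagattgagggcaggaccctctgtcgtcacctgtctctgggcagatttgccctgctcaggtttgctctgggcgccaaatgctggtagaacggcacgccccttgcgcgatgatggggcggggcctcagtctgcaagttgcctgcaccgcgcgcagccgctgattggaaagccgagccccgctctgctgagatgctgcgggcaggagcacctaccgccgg
Psmb10, chr8:105938343-105938642, minus strand: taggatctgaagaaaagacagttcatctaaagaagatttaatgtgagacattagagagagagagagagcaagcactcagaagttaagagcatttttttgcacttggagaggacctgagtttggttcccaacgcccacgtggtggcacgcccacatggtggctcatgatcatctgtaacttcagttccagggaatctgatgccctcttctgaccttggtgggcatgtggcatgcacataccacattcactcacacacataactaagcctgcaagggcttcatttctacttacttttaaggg
Psmb5, chr14:54617946-54618245, minus strand: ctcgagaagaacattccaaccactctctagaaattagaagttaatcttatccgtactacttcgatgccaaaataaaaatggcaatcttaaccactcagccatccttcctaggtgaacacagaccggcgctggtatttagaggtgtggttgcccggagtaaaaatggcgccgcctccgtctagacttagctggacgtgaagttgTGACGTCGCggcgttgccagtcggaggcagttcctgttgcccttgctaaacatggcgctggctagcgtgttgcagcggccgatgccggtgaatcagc
Psmb6, chr11:70525107-70525406, plus strand: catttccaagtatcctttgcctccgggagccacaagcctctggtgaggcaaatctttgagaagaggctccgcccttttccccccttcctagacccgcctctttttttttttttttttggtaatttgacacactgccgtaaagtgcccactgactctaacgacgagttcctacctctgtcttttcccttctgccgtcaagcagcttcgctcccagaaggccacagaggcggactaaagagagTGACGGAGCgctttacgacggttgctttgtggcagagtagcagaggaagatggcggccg

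The windows of 42 of the 50 members were in the RefSeq table, 45 windows in all, and 3 motifs were searched on both strands. The interferon-stimulated response element, written as GAAA, any 2 bases and GAAA again, was in 5 of the 45 windows (11.1%) and in 3.44% of all 32851 windows of the table. The interferon-gamma-activated site, written TTCNNNGAA and the same on both strands, was in 3 of the 45 (6.67%) and in 8.3% of all. The antioxidant response element, written TGACNNNGC, was in 6 of the 45 (13.3%) and in 12.4% of all. Psmb8 has the letters TTCCCAGAA at position -97 from its start, and neither interferon motif is in the windows of Psmb9 and Psmb10. Psmb5 has TGACGTCGC at position -47 and Psmb6 has TGACGGAGC at position -9. A match is a run of letters only, and none of the 3 motifs overlaps another in these windows.

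Psmb8 was at 9.41, 8.31, 8.06, 8.05 and 7.98 in Tat−/Sal, at 8.65, 8.69, 8.67, 8.28 and 8.78 in Tat−/Meth, at 8.35, 8.39, 7.99, 8.17 and 8.76 in Tat+/Sal and at 8.02, 8.11, 8.09, 8.40 and 8.40 in Tat+/Meth. Replicate 1 of Tat−/Sal was the highest of all 20 arrays and lay 1.31 above the mean of the other 4 in its group. The log2 fold change in Tat−/Meth vs. Tat−/Sal was 0.25 (SE 0.21, limma adjusted p = 0.332). Without replicate 1 of Tat−/Sal it was 0.52 (SE 0.14, limma adjusted p = 0.00493), a rise. The difference between Tat+/Meth and Tat−/Meth was -0.41, with an adjusted p of 0.11 in all arrays and of 0.012 without that replicate. The call for Psmb8 therefore depends on 1 Tat−/Sal mouse.

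Psmb9 was at 9.26, 8.43, 8.18, 8.11 and 8.37 in Tat−/Sal, at 8.63, 8.45, 8.39, 7.96 and 8.82 in Tat−/Meth, at 8.52, 8.50, 8.13, 8.37 and 8.73 in Tat+/Sal and at 8.64, 8.45, 8.14, 8.32 and 8.71 in Tat+/Meth. Replicate 1 of Tat−/Sal was again the highest of the 20 arrays, by 0.99 over the mean of the other 4 in its group, and otherwise the 4 groups overlapped. The log2 fold change in Tat−/Meth vs. Tat−/Sal was -0.02 (95% interval -0.42 to 0.39, limma adjusted p = 0.952) and 0.18 without that replicate (adjusted p = 0.348).

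Psmb10 was at 13.30, 12.89, 12.99, 12.93 and 12.94 in Tat−/Sal, at 12.85, 12.58, 12.53, 12.62 and 12.63 in Tat−/Meth, at 12.97, 13.04, 13.13, 12.83 and 12.87 in Tat+/Sal and at 12.86, 12.89, 13.01, 12.79 and 12.94 in Tat+/Meth. The Tat−/Meth arrays all lay below the Tat−/Sal arrays, and 4 of the 5 lay below every array of the other groups. Psmb10 fell by 0.37 on the log2 scale (SE 0.08, limma adjusted p = 0.00103) in Tat−/Meth vs. Tat−/Sal, and by 0.30 without replicate 1 of Tat−/Sal (adjusted p = 0.00252). In Tat+/Meth it exceeded Tat−/Meth by 0.26 (adjusted p = 0.0128), where the groups overlapped by 1 array. With each array scaled to its median instead, the fall was 0.25 and did not pass (adjusted p = 0.279).

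Replicate 1 of Tat−/Sal stood apart in the interferon and antigen presentation genes too. Within its group it was the highest array for all 16 genes of a list of MHC class I and interferon companions, and for 11 of the 16 it was the highest of all 20 arrays. The interferon-induced GTPase Gbp3 was 1.83 above the mean of the other 4 Tat−/Sal arrays and B2m, the light chain of MHC class I, was 0.90 above. Irf7, an interferon-induced transcription factor, was at 7.93 against 4.74 to 6.18 on the other 4, and Nlrc5, the activator of MHC class I genes, at 7.56 against 4.54 to 5.62. Both were too dim to be tested, and replicate 5 of Tat−/Sal was not well above background in either. Over 15095 genes with all 5 values, 22.2% were highest on this array. Its summed microglial marker level was 17.49, within the 17.41 to 17.78 of its group, and its summed lymphocyte marker level was 10.13, within 9.77 to 10.43. The microglial sum follows mostly Itgam (mean 17.13 in Tat−/Sal) and the lymphocyte sum Cd3e (9.95), each the brightest of its list. The cell content of this array was not tested.

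**Figure D2:**
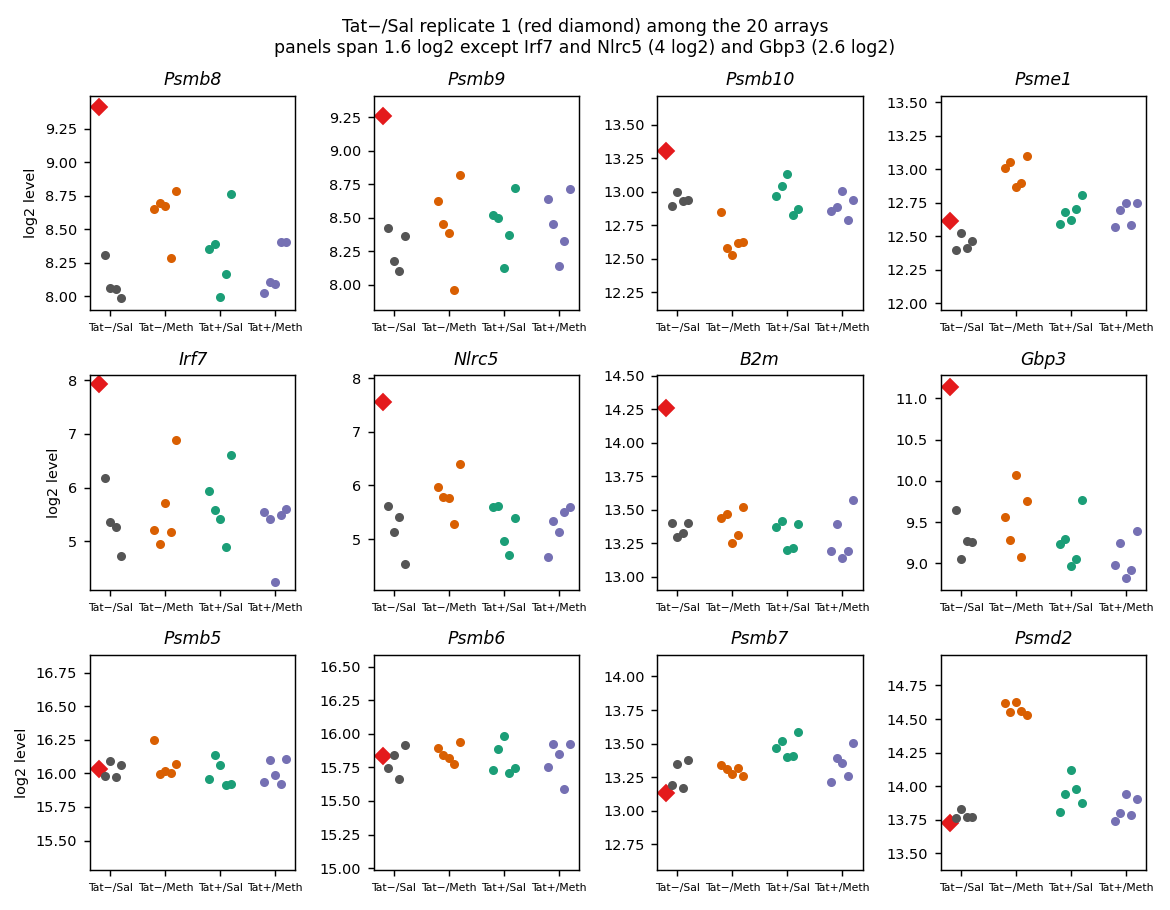
Log2 level (vertical axes) of the 3 immunoproteasome genes, Psme1, 4 interferon and MHC companions and 4 other proteasome genes on the 20 arrays, by group (horizontal axes). Replicate 1 of Tat−/Sal, the red diamond, is at the top for Psmb8, Psmb9, Psmb10, Irf7, Nlrc5, B2m and Gbp3 and inside or at the edge of its group for Psmb5, Psmb6, Psmb7 and Psmd2.

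Of these companions, 12 of 16 were bright enough to test. In Tat−/Meth vs. Tat−/Sal 1 of the 12 passed, against 50.2% of all genes. It was Stat2, which transduces the interferon signal and rose by 0.50 (limma adjusted p = 8.00e-05). In Tat+/Meth vs. Tat−/Meth 2 passed, against 54.4% of all genes. Stat2 fell by 0.58 (adjusted p = 1.43e-05) and H2-K1, a classical MHC class I heavy chain, fell by 0.69 (adjusted p = 0.00545). None of the 12 passed in Tat+/Sal vs. Tat−/Sal, against 1.42% of all genes, and 2 had an unadjusted p under 0.05, against 20.5%.

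Some markers of the cells that make the immunoproteasome differed between groups. The summed level of 7 microglial markers was 16.82 to 16.95 in Tat−/Meth and 17.41 to 17.78 in the other groups, with all 7 well above background on every array. From Tat−/Sal to Tat−/Meth the microglial integrin Itgam fell by 1.07 on the log2 scale (limma adjusted p = 6.57e-08) and P2ry12 fell by 0.35 (adjusted p = 0.0116), while C1qa rose by 0.36 (adjusted p = 0.00239). Itgam was the brightest of the 7, at a mean of 17.13 in Tat−/Sal where the next, Csf1r, was at 14.96. The sum adds unlogged signals and so follows Itgam most. The median log2 fold change of the 7 was -0.05, and the other 4 did not pass. The sum of 5 T and B lymphocyte markers was 8.90 to 9.93 in Tat−/Meth and 9.77 to 10.696 elsewhere, and 1 of the 5 was well above background on all arrays. The summed endothelial level was 14.75 to 15.23 in Tat−/Meth and 14.29 to 14.83 elsewhere, and the astrocyte sum was 14.99 to 15.27 and 14.70 to 15.02. In tissue RNA, fewer cells of a type and less RNA per cell cannot be told apart, and the part of these markers in the proteasome values was not tested.

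In the cap, 6 of 17 subunit genes rose and 1 fell in Tat−/Meth vs. Tat−/Sal, against 35% and 15.3% of all genes. Of the 6 ATPases, which form the ring that unfolds the substrate, Psmc6 rose and Psmc5 fell. Psmc6 was at 12.76, 12.68, 12.69, 12.59 and 12.55 in Tat−/Sal, at 13.42, 13.32, 13.15, 13.16 and 13.20 in Tat−/Meth, at 12.44, 12.64, 12.43, 12.17 and 12.33 in Tat+/Sal and at 12.52, 12.67, 12.39, 12.42 and 12.41 in Tat+/Meth. Every Tat−/Meth array was above every other array, and the Tat+ groups lay around the lower end of Tat−/Sal or below it. The rise was 0.60 on the log2 scale (SE 0.08, limma adjusted p = 8.28e-06, 1.51-fold). Psmc5 fell by 0.21 (adjusted p = 0.0314), with overlapping groups. The remaining ATPase genes, Psmc1 to Psmc4, had log2 fold changes between -0.06 and 0.01 on their brightest probes. A second probe of Psmc1 had -0.52 (limma adjusted p = 1.71e-05).

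Of the 11 non-ATPase genes of the cap, 5 rose and none fell, against 35% and 15.3% of all genes. Psmd2, the large scaffold subunit that docks ubiquitin receptors, had the largest change of all 48 proteasome genes in this comparison. It was at 13.73, 13.77, 13.83, 13.77 and 13.77 in Tat−/Sal, at 14.62, 14.55, 14.62, 14.56 and 14.53 in Tat−/Meth, at 13.81, 13.94, 14.12, 13.98 and 13.88 in Tat+/Sal and at 13.74, 13.80, 13.94, 13.78 and 13.90 in Tat+/Meth. The Tat−/Meth arrays spanned 0.09 log2 units and lay at least 0.41 above every other array. Psmd2 rose by 0.80 on the log2 scale (SE 0.06, limma adjusted p = 1.55e-09, 1.75-fold).

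Psmd14, the deubiquitinase that cuts the ubiquitin chain off the substrate, was at 11.91, 11.91, 11.78, 11.93 and 11.62 in Tat−/Sal, at 12.44, 12.39, 12.15, 12.33 and 12.11 in Tat−/Meth, at 11.89, 11.81, 11.72, 12.10 and 11.92 in Tat+/Sal and at 11.65, 11.74, 11.58, 11.70 and 11.61 in Tat+/Meth. Its Tat−/Meth arrays lay above all Tat−/Sal arrays by a margin of 0.17. The rise was 0.45 (SE 0.08, limma adjusted p = 0.00015). Psmd7, the inactive partner of Psmd14 in the lid, rose by 0.35 (adjusted p = 0.00302). The scaffold subunit Psmd1 rose by 0.17 (adjusted p = 0.0344) and the lid subunit Psmd6 by 0.14 (adjusted p = 0.0472), the size of the median of all genes. Psmd12 had 0.19 on its brightest probe (adjusted p = 0.0518) and 0.25 on its second (adjusted p = 0.0465). Psmd4, a ubiquitin receptor of the cap, differed by -0.05 (adjusted p = 0.658), and the lid subunits Psmd3, Psmd8 and Psmd11 by 0.03, -0.04 and -0.03. Psmd13, another lid subunit, had a log2 fold change of 0.24 (adjusted p = 0.0828), and of 0.32 (adjusted p = 0.02) without replicate 5 of Tat−/Meth. That replicate had the lowest level of its group in 9 of the 11 non-ATPase genes.

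**Figure D3:**
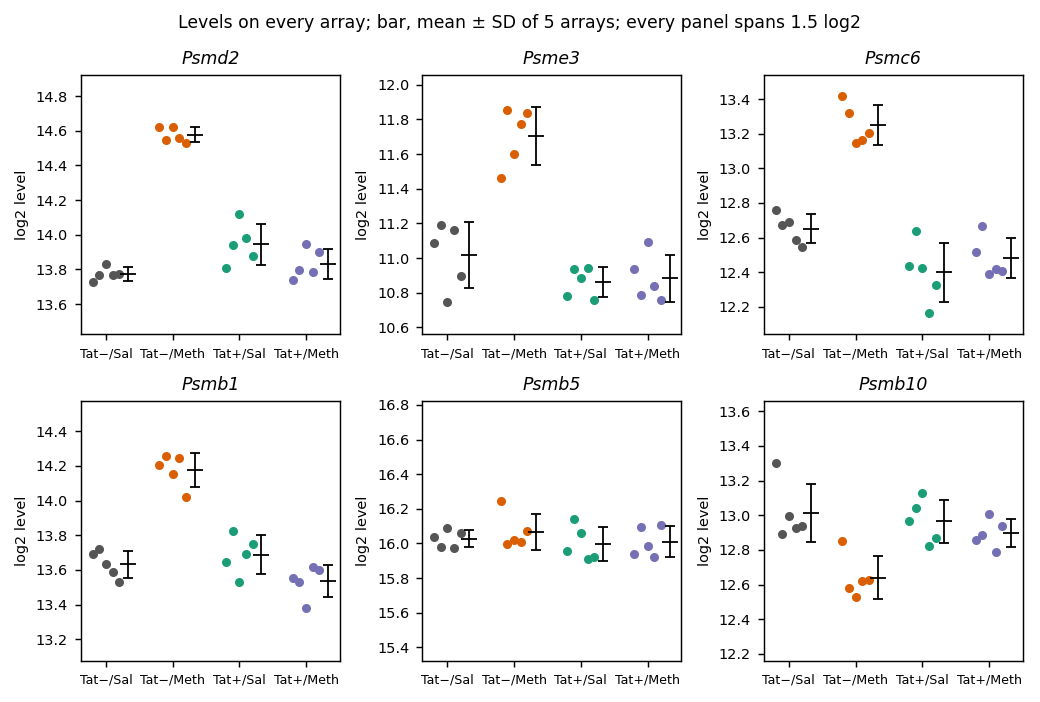
Log2 level of 6 proteasome genes on each of the 20 arrays by group, with a bar for the mean and SD of 5 arrays, each panel spanning 1.5 log2 units. Psmd2, Psme3, Psmc6 and Psmb1 were higher on all 5 Tat−/Meth arrays than on any other, Psmb10 was low in Tat−/Meth and Psmb5 overlapped in all groups.

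The alternative activators, which open the core in place of the cap, rose in 2 of 3 genes, against 35% of all genes. Psme3, the nuclear activator that acts without ubiquitin or ATP, was at 11.09, 11.19, 10.74, 11.16 and 10.90 in Tat−/Sal, at 11.46, 11.85, 11.60, 11.77 and 11.84 in Tat−/Meth, at 10.78, 10.94, 10.88, 10.94 and 10.76 in Tat+/Sal and at 10.94, 10.78, 11.09, 10.84 and 10.76 in Tat+/Meth. The 5 Tat−/Meth arrays lay above all others. The rise was 0.69 on the log2 scale (SE 0.09, limma adjusted p = 9.34e-06, 1.61-fold). Psme1, an interferon-inducible activator subunit, was at 12.61, 12.39, 12.53, 12.42 and 12.46 in Tat−/Sal, at 13.01, 13.06, 12.87, 12.89 and 13.10 in Tat−/Meth, at 12.59, 12.68, 12.62, 12.70 and 12.81 in Tat+/Sal and at 12.57, 12.70, 12.75, 12.58 and 12.74 in Tat+/Meth. It too was higher on all Tat−/Meth arrays than on any other, and rose by 0.50 (SE 0.06, limma adjusted p = 2.78e-06).

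Psme4, the large nuclear activator, varied widely within groups, with an SD of 0.17 in Tat−/Sal and of 0.52 in Tat+/Meth. It was at 8.91, 8.72, 8.82, 8.91 and 8.50 in Tat−/Sal, at 9.16, 9.25, 9.22, 9.35 and 8.29 in Tat−/Meth, at 8.91, 8.63, 9.04, 8.20 and 8.32 in Tat+/Sal and at 8.84, 8.21, 7.85, 9.003 and 7.95 in Tat+/Meth. Replicate 5 of Tat−/Meth lay apart from the other 4, with a gap of 0.88 to the next array. Its log2 fold change in Tat−/Meth vs. Tat−/Sal was 0.28 (SE 0.23, limma adjusted p = 0.332). Psme2b, a near-identical copy of Psme2, rose by 0.37 (adjusted p = 0.000499), but its probe may also bind the RNA of Psme2, and the level is uncertain for that reason.

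Genes for assembly factors were divided. The core chaperones Psmg1 and Psmg2 act as a pair, and so do Psmg3 and Psmg4. Psmg2 was at 12.33, 12.16, 11.99, 11.96 and 12.15 in Tat−/Sal, at 11.77, 11.74, 11.65, 11.70 and 11.83 in Tat−/Meth, at 11.99, 12.05, 12.26, 11.97 and 11.97 in Tat+/Sal and at 11.88, 12.14, 12.06, 12.01 and 12.09 in Tat+/Meth. The Tat−/Meth arrays were below all other arrays. Psmg2 fell by 0.38 on the log2 scale (SE 0.07, limma adjusted p = 0.000333), while Psmg1 rose by 0.25 on its brightest probe (adjusted p = 0.00332) and had -0.08 on its second, which did not pass. Psmg3 rose by 0.46 (adjusted p = 3.26e-05), and Psmg4 differed by -0.15 (adjusted p = 0.062). Psmf1, an inhibitor of the core in vitro, rose by 0.39 (adjusted p = 0.00339). With each array scaled to its median, the fall of Psmg2 was 0.26 and did not pass (adjusted p = 0.229).

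Of the 3 chaperones that assemble the ATPase ring, Psmd10 (gankyrin) rose by 0.40 (limma adjusted p = 8.09e-05), and Psmd5 and Psmd9 had log2 fold changes of 0.16 and -0.04 that did not pass. There were also 2 genes that match the name rule without encoding a subunit. Psme3ip1, whose product binds the activator made from Psme3, rose by 0.49 (adjusted p = 7.30e-06), and Psmc3ip, a meiotic recombination factor, had a log2 fold change of 0.09 (adjusted p = 0.369).

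Tat+/Meth was compared with Tat−/Meth to ask whether Tat altered the response to Meth. In this comparison 4 proteasome genes were higher and 21 were lower, 52.1% of the 48, against 54.4% of all genes (16% higher and 38.5% lower). The median log2 fold change was -0.15 over both the proteasome genes and all genes, and 18 proteasome genes had groups that did not overlap, 37.5% against 38% of all. None was called with a change above 2-fold, against 7.22% of all genes. Without scaling between arrays, 18 proteasome genes were higher and 3 lower, where 36.8% of all genes were called and 94.1% of those calls were higher. The comparison shares the Tat−/Meth arrays, and their slide, with the previous one, so that a gene high on those arrays rises in one and falls in the other, and the values are given side by side without a test of their likeness. Psme3 fell by 0.82 (SE 0.09, limma adjusted p = 1.03e-06), where it had risen by 0.69. The ATPase gene Psmc6 fell by 0.77 (SE 0.08, adjusted p = 3.65e-07) after a rise of 0.60, and the scaffold gene Psmd2 by 0.74 (SE 0.06, adjusted p = 4.40e-09) after a rise of 0.80.

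Among other members, the core subunit Psmb1 fell by 0.64 and Psma1 by 0.57, and the deubiquitinase Psmd14 fell by 0.63 (limma adjusted p = 2.19e-07, 1.26e-05 and 3.60e-06). Psme1 fell by 0.32 (adjusted p = 0.000315), less than it had risen. The genes that were higher were Psmg2, by 0.30 (adjusted p = 0.00233), Psmb10, Psmc5, by 0.24 (adjusted p = 0.0169), and Psmg4, by 0.16 (adjusted p = 0.0419). Of the 4, only in Psmg2 did the groups not overlap. The catalytic genes Psmb5, Psmb6 and Psmb7 had differences of -0.06, -0.05 and 0.04 with 95% intervals of -0.18 to 0.07, -0.20 to 0.10 and -0.08 to 0.17. Psme4 fell by 0.68 (adjusted p = 0.0196), though its groups overlapped.

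**Figure D4:**
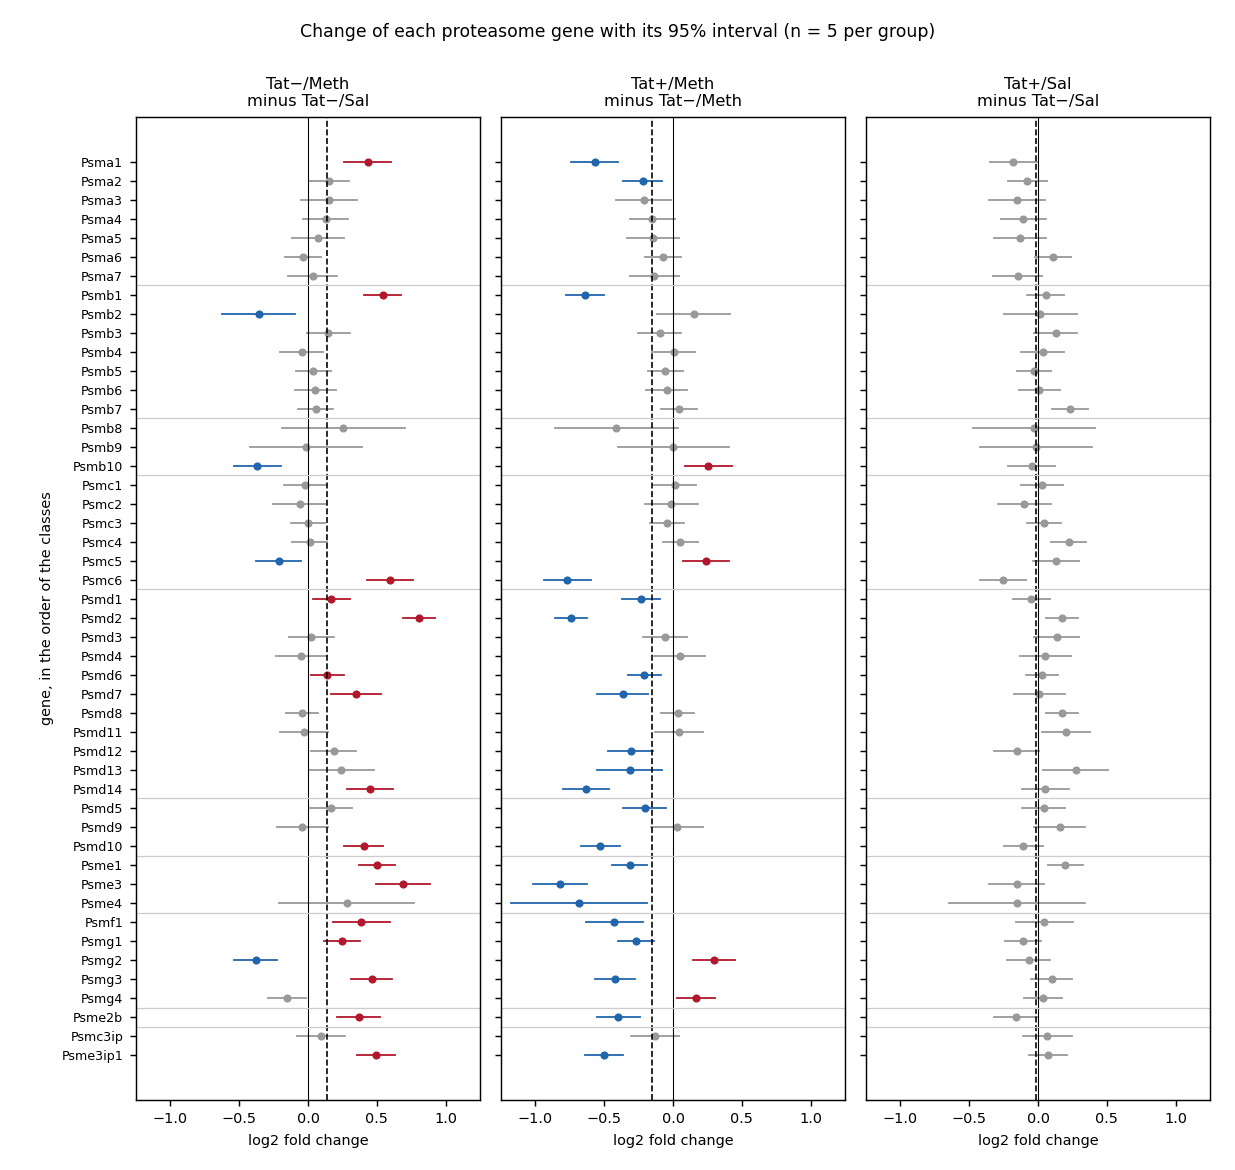
Log2 fold change (horizontal axis) of each tested proteasome gene (vertical axis) with its 95% interval in 3 comparisons of 5 arrays against 5. Red marks a rise and blue a fall at an adjusted p under 0.05, grey marks genes that did not pass, and the dashed line is the median of all genes, at 0.14, -0.15 and -0.01; the first panel has 16 red and 4 blue genes, the middle one 4 red and 21 blue, and the last none.

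In the comparisons without Tat−/Meth, no proteasome gene passed on its brightest probe. Tat alone was assessed by setting Tat+/Sal against Tat−/Sal, which gave 0 of 48 by limma against 1.42% of all genes, and at an unadjusted p under 0.05 it gave 10 of 48 against 20.5% of all genes. The groups did not overlap in 2 of the 48, against 4.85% of all genes. The methods' t-test gave 8 unadjusted and 0 after adjustment. The smallest adjusted p was that of Psmb7, the trypsin-like subunit, which was 0.23 higher in Tat+/Sal (SE 0.06, adjusted p = 0.0585) with groups that did not overlap. Next was the ATPase Psmc4, 0.22 higher (adjusted p = 0.0677), also without overlap. Tat−/Sal lay on slide 2 and Tat+/Sal on slide 3, and the Tat+/Meth mean of Psmb7 was 0.06 higher on slide 3 (2 arrays) than on slide 2 (3 arrays), and that of Psmc4 was 0.10 higher. In this comparison 8 members passed with slide as a random block, whose fitted correlation was -0.06, and none with slide as a fixed block. The shares of all genes are not given for the t-test and the slide blocks, so these counts are no result about the members.

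Meth in the presence of Tat was assessed by setting Tat+/Meth against Tat+/Sal, which gave 0 of 48 proteasome genes by limma against 0% of all genes. At an unadjusted p under 0.05 there were 9 of 48, against 12.2% of all. The differences of the proteasome genes were small, from -0.34 to 0.13 with a median of -0.06, and 34 of the 48 lay below the median of all genes. Psma6, an alpha-ring subunit, was the only member whose groups did not overlap (1 of 48, against 2.28% of all genes), with a difference of -0.22 and an adjusted p of 0.219. On slide 3, where both groups were present, the difference of Psmd2 was -0.10 (2 arrays against 5), and over all arrays it was -0.11.

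Tat+/Meth vs. Tat−/Sal also had 0 of 48 by limma, against 0% of all genes, with 3 at an unadjusted p under 0.05 against 7.79% of all. No proteasome gene had groups that did not overlap, against 1.68% of all genes. For the 5 genes with the largest rises in Tat−/Meth, the differences from Tat−/Sal were 0.06 for Psmd2 (95% interval -0.06 to 0.18), -0.13 for Psme3 (-0.33 to 0.06), -0.17 for Psmc6 (-0.34 to -0.0024, adjusted p = 0.64), -0.10 for Psmb1 (-0.23 to 0.04) and 0.19 for Psme1 (0.06 to 0.32, adjusted p = 0.64). Each of these intervals ends below the estimated rise of the same gene in Tat−/Meth. These genes were chosen for that rise, and both differences use the Tat−/Sal arrays, so this is no test of a difference between the groups.

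The interaction, that is, how far the Meth response of Tat+ mice exceeded that of Tat− mice, tested the difference between the responses itself. It passed for 16 proteasome genes, 2 with a positive and 14 with a negative value, against 36% of all genes (12.4% positive and 23.6% negative), and none of the 16 was above 2-fold, against 7.44% of all genes. Psmd2 had the most negative value of the 48, at -0.92 (SE 0.08, limma adjusted p = 7.07e-08). It was followed by Psmb1, at -0.70 (adjusted p = 1.28e-05), and Psmd14, at -0.68 (adjusted p = 0.000144). The positive values were those of Psmg2, at 0.37 (adjusted p = 0.0103), and Psmb10, at 0.30 (adjusted p = 0.0486). The value of Psmb10 without replicate 1 of Tat−/Sal was 0.23 (adjusted p = 0.0819). For Psmb8 the interaction was -0.38 (adjusted p = 0.34), and -0.64 (adjusted p = 0.0134) without that replicate. Without scaling between arrays, 17 members passed with a positive and 1 with a negative value. Of all genes 38.9% passed there, 99.2% of them with a positive value, and the 0.35 median of all genes was positive as well.

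Of the 48 genes, 11 had further probes, 12 in all, and these did not always move alike. For Psma4 of the alpha ring, the brightest probe had a log2 fold change of 0.13 in Tat−/Meth vs. Tat−/Sal and the other probe one of 0.77 (limma adjusted p = 1.50e-07). The ATPase Psmc1 had -0.02 on its brightest probe and -0.52 on the other (adjusted p = 1.71e-05). Psmd10 rose on both, by 0.40 and 0.31. In Tat+/Meth vs. Tat−/Meth, Psmd12 fell on both, by 0.31 and 0.34 (adjusted p = 0.00271 and 0.00983). The Psmb5 probes had 0.04 and 0.08, but they differed elsewhere. In Tat+/Sal vs. Tat−/Sal the second Psmb5 probe was 0.22 higher (adjusted p = 0.0394) where the brightest had -0.03, and in the interaction it had -0.21 (adjusted p = 0.0276) where the brightest had -0.03. The second probe of Psme4 rose by 0.44 (adjusted p = 0.0191) from Tat−/Sal to Tat−/Meth, where the brightest had 0.28 and did not pass. Both Psme4 probes fell in Tat+/Meth vs. Tat−/Meth, by 0.68 on the brightest and 0.48 on the second (adjusted p = 0.0196 and 0.0102). Of the 3 probes of Psme2b, the dimmest had -1.29 (adjusted p = 0.000544) where the brightest had 0.37. A single probe can therefore not be taken for all transcripts of Psma4, Psmc1, Psmg1, Psme2b or Psmb5, and the probe sequences were not used here. For Psme4 the call in Tat−/Meth vs. Tat−/Sal depended on the probe, while the direction did not. Psmd2, Psme3, Psmc6, Psmb1, Psmb8, Psmb9 and Psmb10 each had 1 probe.

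The genes that work with the proteasome changed in both directions. Of 28 on a list of partners, which hold ubiquitin genes, shuttle factors, deubiquitinases and regulators, 27 were tested. In Tat−/Meth vs. Tat−/Sal, 10 rose and 2 fell, 12 of the 27 against 50.2% of all genes, with a median of 0.11 against 0.14. Ngly1, the glycanase that activates the transcription factor of proteasome genes, rose by 0.94 (limma adjusted p = 5.11e-07). That factor, Nfe2l1, rose by 0.34 (adjusted p = 0.0221). Uchl5, a deubiquitinase of the cap, rose by 0.64 (adjusted p = 1.34e-07), and Adrm1, a ubiquitin receptor of the cap that binds Uchl5, fell by 0.63 (adjusted p = 3.80e-07).

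In Tat+/Meth vs. Tat−/Meth, 2 partners were higher and 10 lower, 12 of the 27 against 54.4% of all genes, where Ngly1 fell by 1.01 on the log2 scale, Uchl5 fell by 0.79 and Adrm1 rose by 0.66 (limma adjusted p = 1.88e-07, 7.54e-09 and 1.84e-07). The interaction passed for 11 of the 27 partners, against 36% of all genes, with 2 positive and 9 negative values, Ngly1 at -0.92 and Adrm1 at 0.63 among them. None of the 27 passed in the comparisons without Tat−/Meth, against 1.42% of all genes for Tat alone and 0% in the others. At an unadjusted p under 0.05 there were 3 for Tat alone, against 20.5% of all genes. There were 2 for Meth in the presence of Tat (12.2% of all genes) and 2 for both against neither (7.79%).

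The scaling between arrays sets the zero of every fold change. The unscaled 75th percentile was 9.64 to 9.79 log2 units in Tat−/Meth and 9.75 to 10.33 in the other groups. In Tat−/Meth vs. Tat−/Sal the median of all genes was 0.14 with the scaling used, 0.26 after scaling to the median and -0.28 without scaling, and the proteasome median followed it at 0.13, 0.26 and -0.29. Relative to the median of all genes, Psmd2 was 0.66 higher, Psme3 0.55, Psmc6 0.46, Psmb1 0.40, Psme1 0.36 and Psmd14 0.31. On the same relative scale Psmb5 was at -0.10, Psmb6 at -0.09 and Psmb7 at -0.08, and Psmg2 and Psmb10 were at -0.52 and -0.51. Without scaling, Psmd2 was the only member that rose, by 0.38 (adjusted p = 0.000482). The other 5 did not pass there, with differences of 0.27 for Psme3 (adjusted p = 0.113), 0.18 for Psmc6 (adjusted p = 0.26), 0.12 for Psmb1, 0.081 for Psme1 and 0.031 for Psmd14.

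**Figure D5:**
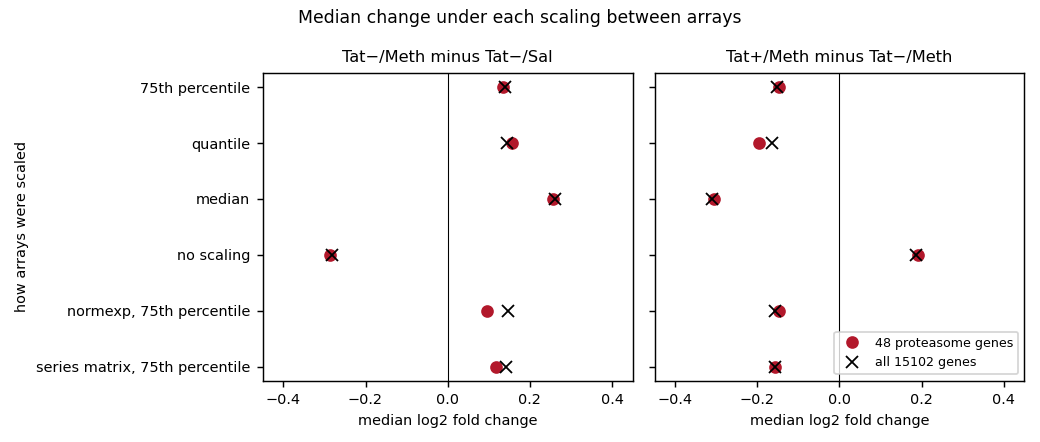
Median log2 fold change (horizontal axis) of the 48 proteasome genes (red) and of all 15102 genes (crosses) in 2 comparisons under 6 treatments of the arrays (vertical axis). The members' median stayed within 0.051 of that of all genes in every setting, and both changed sign without scaling, from 0.13 to -0.29 and from -0.15 to 0.19 for the proteasome genes.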

How the data were processed

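RNA of 20 mouse brains was hybridised to Agilent one-colour arrays. The files hold spot intensity values as the authors deposited them, written by Agilent Feature Extraction 10.7.3.1; the methods name another scanner and dye than the files and labels. The background-subtracted signal was averaged over a probe's spots as log2, without outlier spots (4278), and scaled to a common 75th percentile; the log2 values were computed here from the deposited signal. Symbols came from probe accessions matched to RefSeq, by name. A probe needed values on 3 arrays of each group, and a gene a mean of 6 in 1 group. R 4.3.3 and limma 3.58.1 (lmFit, eBayes, 1 mean per group) were used, and the steps were tested on simulated data.

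Groups came from the sample titles, and the labels name no tie between same-numbered mice. The fit was therefore unpaired, and its p-values measure the spread between mice. The number of arrays limits the precision. The members, gene lists, motifs and tests were chosen with earlier results of these data known. Described by array were the catalytic and immunoproteasome subunits and Psme1, and per comparison and direction the 3 largest changes among members that passed without overlap (for the interaction, among those that passed); Psma1 and Psme4 were added after their values were seen. Marker lists were striatum, cortex, astrocyte, microglia, oligodendrocyte (summed level 17.55 to 18.22), endothelium, red blood cells (15.01 to 17.36), choroid plexus (9.14 to 13.49) and lymphocytes. Alternatives were quantile, median and no scaling, normexp with an offset of 50, series matrix values, other filters and probes, slide and replicate blocks, only the groups compared, the methods' t-test, other thresholds and each array left out.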

Additional observations from a re-analysis of the deposited data

Results flagged for a closer look

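Over the 192 combinations of a tested gene and a group, 10 had 1 array apart from the other 4 by Dixon's criterion, and chance alone gives about 1 in 20. Replicate 1 of Tat−/Sal was high in all 3 immunoproteasome genes. Psmb8 was at 9.41 there against 7.98 to 8.31 in its group, Psmb9 at 9.26 against 8.11 to 8.43, and Psmb10 at 13.30 against 12.89 to 12.99. In the list of 16 MHC class I and interferon companions, 7 had a gap beyond the same criterion on this array, against 0.835% of all genes.

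In Tat−/Meth, Psmb5 was at 16.25 on replicate 1 against 15.999 to 16.07, and Psmc3 also at 16.25 against 16.08 to 16.12. Psmb8 was low on replicate 4 of Tat−/Meth, at 8.28 against 8.65 to 8.78. Replicate 5 of Tat−/Meth was low in Psmd13, at 13.03 against 13.40 to 13.47, and in Psme4, at 8.29 against 9.16 to 9.35. Psmd9 was high on replicate 2 of Tat+/Meth, at 10.19 against 9.89 to 9.97, and Psmg2 on replicate 3 of Tat+/Sal, at 12.26 against 11.97 to 12.05.

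The interaction in limma (the Meth effect in Tat+ less that in Tat− mice) passed for 16 of the 48 members, against 36% of all genes. Slide 1 holds 1 of the 4 groups behind each value. On the log2 scale the interaction was -0.92 for Psmd2, -0.70 for Psmb1, -0.68 for Psmd14, -0.67 for Psme3, -0.59 for Psmd13, -0.57 for Psme3ip1, -0.52 for Psmg3 and -0.51 for both Psme1 and Psmc6. It was -0.47 for Psmf1, -0.42 for Psmd10, -0.39 for Psma1, -0.38 for Psmd7 and -0.24 for Psmd6. The positive values were 0.37 for Psmg2 and 0.30 for Psmb10.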

How the results depend on the processing

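Over all alternatives, 148 counts of members that passed stayed within 1.5 times the reported count and 18 did not. This tally takes higher and lower members together. The counts without scaling in the comparisons with Tat−/Meth are therefore among the 148, although most directions turned over. A count of 0 that stayed at 0 is among them too. Of the values of single genes, 703 kept their direction and side of the threshold, 35 lost the call, 3 gained it and 11 changed sign. The cause was not tested in any of these cases. For Tat−/Meth vs. Tat−/Sal (20 members), Tat+/Meth vs. Tat−/Meth (25) and the interaction (16), scaling to the median gave 11, 15 and 8. Of all genes, 28.1%, 39.3% and 17.1% passed under that scaling. In these comparisons a 2-fold threshold gave 0 each, and an adjusted p under 0.01 with 3-fold gave 0 each. For Tat+/Sal vs. Tat−/Sal (0), the count was 2 under quantile normalization, where 3.24% of all genes passed. It was 1 with the second brightest probes and 8 with slide as a random block, whose fitted correlation was -0.06. The methods' t-test without adjustment gave 8 there, and Tat+/Meth had 8 against Tat+/Sal and 3 against Tat−/Sal, where limma gave 0 each. For blocks, other probes, the t-test and arrays left out, here and below, the share of all genes is not given. Those counts are no result about the members. Without scaling the calls over all genes were 1.74% higher for Meth alone (69.6% as reported), 94.1% for Tat+/Meth vs. Tat−/Meth (29.3%) and 99.2% for the interaction (34.6%).

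Leaving out each array in turn gave 16 to 22 members in Tat−/Meth vs. Tat−/Sal, 22 to 25 in Tat+/Meth vs. Tat−/Meth, 14 to 19 in the interaction and 0 to 2 in Tat+/Sal vs. Tat−/Sal, with 2 without replicate 3 of Tat−/Sal and 1 without replicate 2 of Tat+/Sal. In the other comparisons it gave 0. The interaction of Psmb10 lost its call in most of these, with values between 0.23 and 0.32.

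The replicate number as a block gave 3 members in Tat+/Sal vs. Tat−/Sal, and 23, 26 and 18 in the first 3 comparisons named. Of 30 pairs of arrays with one number, 8 had a correlation over 0.1, and the range was -0.18 to 0.36. However, 10 of the 20 arrays correlated best with the arrays of their own number. The labels name no pairing, so the main fit did not pair mice, and what same-numbered arrays may share was not tested.

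For Meth alone (Tat−/Meth less Tat−/Sal) the sign of Psmb9 changed to 0.067 under quantile normalization and 0.11 under median scaling, and leaving out arrays gave -0.11 to 0.18. Without scaling the sign changed for Psmb5 (-0.38), Psmb6 (-0.37), Psmb7 (-0.36) and Psmb8 (-0.17), and for Psme1 in Tat+/Meth vs. Tat−/Meth (0.022). For Psmb6 the value was -0.0011 with normexp, and for Psmb5 leaving out arrays gave -0.0052 to 0.057. The methods' t-test and a fit of only the groups compared give no interaction, and slide as a fixed block gives no comparison with Tat−/Meth.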
